A study of Mus musculus with 2 samples.

Results

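The caveolins and cavins are the coat genes of caveolae, and 6 of them were looked up by symbol in the deposited table of 22095 genes: the caveolins *Cav1*, *Cav2* and *Cav3* and the cavins *Ptrf* (cavin-1), *Sdpr* (cavin-2) and *Prkcdbp* (cavin-3). All 6 were found, each alone at its locus, and all were above 0 in both libraries and averaged at least 1 FPKM, as did 11099 genes in all, which are called the genes tested. FPKM is a level, the fragments of a transcript per kilobase of its length and per unit of library depth. C2C12, a clonal line of mouse myoblasts that fuse into myotubes when serum is withdrawn, was transfected either with the negative control oligo siNC or with si*Malat1*, an siRNA against the long non-coding RNA *Malat1*, and polyadenylated RNA was sequenced as 1 library for each. The cells of both groups were in differentiation medium (DM), for 2 days by the study's account, while the labels give no day. The question put to these genes is how the muscle form *Cav3* compared with the general forms when *Malat1* was targeted. With 1 library a group there is no replicate spread, so no difference below carries an error, an interval or a p-value, and each is read against the spread of all genes tested. A difference is the log2 ratio of si*Malat1* over siNC after adding 0.1 FPKM to each level.

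Caveolae are small flask-shaped pits of the plasma membrane that flatten under stretch and hold signalling proteins and lipids. Caveolins are hairpin proteins that sit in the inner leaflet with cholesterol, and cavins are coiled-coil proteins that assemble on the caveolin scaffold from the cytosol. Caveolin-1 and caveolin-2 form hetero-oligomers in most tissues, whereas caveolin-3 is the form of skeletal and cardiac muscle, where it lines the sarcolemma and the forming T tubules. *Ptrf* is the cavin without which caveolae do not form, *Sdpr* helps to shape the membrane, *Prkcdbp* carries signals and traffic, and *Murc* (cavin-4) is the muscle cavin. *Murc* is not among the 6 genes but is given beside them as the first gene of a list of caveola accessory genes. Mutations of human *CAV3* and of human *PTRF* (now *CAVIN1*) cause muscle disease with rippling or dystrophy.

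*Cav3*, the caveolin of muscle, was the single coat gene of the 6 with the higher level in si*Malat1*, while both general caveolins and all 3 cavins had the lower level. *Cav3* was past a fold of 1.5 and the other 5 were within it. Among genes tested, 2.29% were higher by at least 1.5-fold and 1.75% lower, so 1 of 6 members was higher past this fold and 0 of 6 lower. On the side of 0 alone, 5 of 6 members had a log2 ratio below 0, against 57.4% of genes tested. That background share was 67.9% when both libraries were scaled to the same FPKM sum and even by construction when log2 ratios were centred on their median, and the members were 5 below and 1 above under each. At a smaller size, a log2 ratio of 0.32 or more in either direction, 4 of 6 members were lower (*Cav1*, *Sdpr*, *Prkcdbp* and *Cav2*) against 8.43% of genes tested, and 1 was higher against 6.5%. That count of 4 rests on the scaling, since *Cav2* and *Prkcdbp* lay close to this limit: centred on the median, 2 members were lower (*Cav1* and *Sdpr*) against 6.62% of genes tested, and with 1 FPKM added to each level 3 were lower, without *Cav2*, against 6.01%. At a fold of 2, *Cav3* was still higher and no member was lower, against 0.721% higher and 0.189% lower among genes tested. The median log2 ratio was -0.33 over the members and -0.04 over the genes tested.

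**Figure D1:**
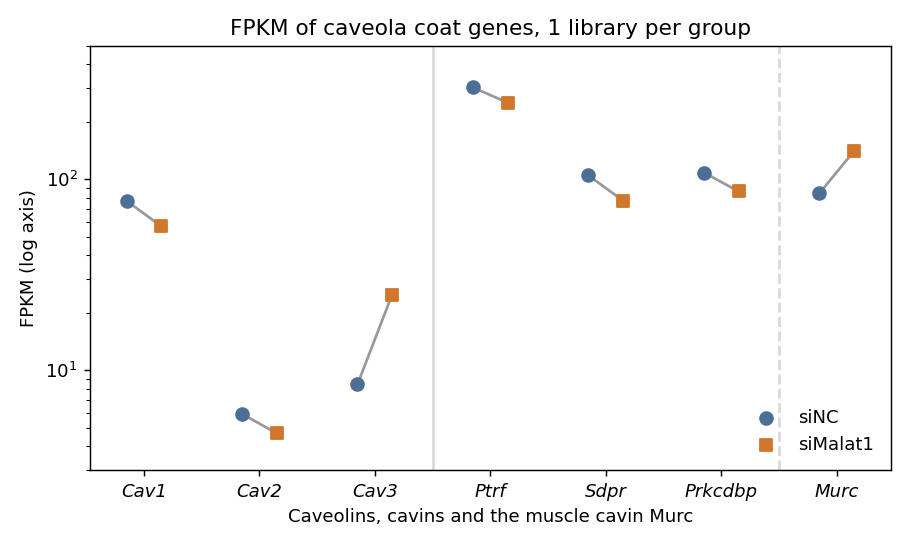
FPKM (log axis) of the 3 caveolins, the 3 cavins and the muscle cavin *Murc* in the siNC library (circles) and the si*Malat1* library (squares), 1 library each, with lines that join the libraries for each gene. *Cav3* went from 8.45 FPKM with siNC to 25.0 FPKM with si*Malat1* and *Murc* from 84.7 to 141, while the other 5 genes had the lower level in si*Malat1*.

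The fall of *Malat1* was small in these libraries. The study reports its knockdown by RT-qPCR in the samples used for sequencing and shows a genomic snapshot of *Malat1* from the sequencing itself. Elsewhere it reports a partial knockdown by siRNA in C2C12, also by RT-qPCR. It also states that the 3' end of *Malat1* is not made by canonical polyadenylation, whereas polyadenylated RNA was sequenced. What that does to the level of *Malat1* here was not tested. *Malat1* itself stood at 41.8 FPKM with siNC and at 34.2 FPKM with si*Malat1*, a log2 ratio of -0.29, and 10.5% of genes tested had a lower one. *Cav1*, *Sdpr*, *Prkcdbp* and *Cav2* lay further below 0 than the targeted RNA did. *Gapdh*, a glycolytic gene, had a log2 ratio of -0.02. The muscle identity of the cells was clear in both libraries, with *Des* (desmin) at 1652 and 1805 FPKM, *Myog* (myogenin) at 525 and 857 FPKM and *Myh3* (embryonic myosin heavy chain) at 304 and 531 FPKM with siNC and si*Malat1*. *Myod1*, which encodes MyoD, went the other way, at 113 FPKM with siNC and 95.8 FPKM with si*Malat1*, a log2 ratio of -0.23. Of 6 muscle markers, the other 5 had the higher level in si*Malat1*, 3 of them past 1.5-fold, with a median log2 ratio of 0.57 over all 6. Among genes tested, 42.6% lay above 0 and 2.29% were higher past 1.5-fold. *Cav3* and *Murc* were on the side of those 5 markers and the general coat genes on the side of *Myod1*, and how far a larger share of differentiated cells or more RNA per cell lies behind any level cannot be told apart in bulk RNA. Other cell types rich in caveolae gave almost no signal: all 6 adipocyte markers were under 1 FPKM in both libraries, with a summed level of 0.199 and 0.529 FPKM and *Adipoq*, *Plin1* and *Cidec* listed at 0 in both, and all 6 endothelial markers were under 1 FPKM, with summed levels of 0.427 and 0.384 FPKM. Of 4 leukocyte markers 3 were under 1 FPKM in both libraries, and their sum was 1.04 FPKM with siNC and 0.597 in si*Malat1*, nearly all of it *Cd68*. Of 5 smooth muscle markers, *Myh11* and *Cnn1* were under 1 FPKM in both libraries, while *Acta2* (2169 and 2471 FPKM), which differentiating myoblasts also express, *Smtn* (63.0 and 47.3 FPKM) and *Lmod1* (2.34 and 2.51 FPKM) were not.

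The muscle caveolin *Cav3* was at 8.45 FPKM with siNC and at 25.0 FPKM with si*Malat1*, 2.96-fold higher, with a log2 ratio of 1.55. Of the 11099 genes tested, 9 had a higher log2 ratio (0.0811%), and of the 6697 genes that averaged at least 10 FPKM 0.0149% did. Under 10 FPKM in siNC, *Cav3* met the filter of 10 FPKM only through si*Malat1*, so its place among those 6697 genes is tied to that filter. Its level in siNC was above that of 34.6% of genes tested, and in si*Malat1* above that of 66.8%, so *Cav3* passed from the lower part of the expressed genes to the upper part. *Cav3* lies on chromosome 6 of mm9 from 112409499 to 112422866. In GRCm38 its 1 annotated transcript has 2 exons and 1157 bases, of which 453 code for protein.

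*Cav1*, which encodes the main scaffold protein of caveolae outside muscle fibers, was at 77.3 FPKM with siNC and at 56.9 FPKM with si*Malat1*, a log2 ratio of -0.44 and 1.36-fold lower. Of the genes tested, 3.97% had a lower log2 ratio, and 1.60% of those that averaged at least 10 FPKM. *Cav2*, its partner that needs caveolin-1 to leave the Golgi, was at 5.92 FPKM with siNC and at 4.69 FPKM with si*Malat1*, a log2 ratio of -0.33 with 8.08% of genes tested below it. Both general caveolins were thus lower in si*Malat1*, by less than 1.5-fold each. They are neighbours on chromosome 6 of mm9, *Cav2* from 17231341 to 17239011 and *Cav1* from 17256370 to 17291324, with 17358 bases between them.

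The caveolin signature is a short stretch that marks the family. The coding bases of this stretch are given from the first transcript of each gene in GENCODE M21 (GRCm38), all on the plus strand of chromosome 6, with capitals at the 7 of 24 positions where the 3 genes are not all the same.
*Cav1*, coding bases 202 to 225, chr6:17339119-17339142: ttTgaAgaTGtgattgcAgaAccA
*Cav2*, coding bases 157 to 180, chr6:17281901-17281924: ttCgaGgaTCtgattgcAgaGccT
*Cav3*, coding bases 121 to 144, chr6:112472143-112472166: ttTgaAgaCGtgattgcGgaGccC
In this stretch *Cav1* differs from *Cav3* at 4 bases and *Cav2* from *Cav3* at 6. Over the aligned coding sequences *Cav1* and *Cav3* were 71.1% identical, against 58.2% for *Cav1* with *Cav2* and 55.3% for *Cav2* with *Cav3*. The identity never extended over a whole read of 50 bases: of the 1108 words of 50 bases in *Cav3*, 0 occur in an annotated transcript of another gene on either strand, and the same holds for the 3549 words of *Cav1* and the 3333 of *Cav2*. A read of this length that matches a *Cav1* or *Cav3* transcript exactly thus matches no annotated transcript of another gene.

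The make-up of the caveolin pool differed more between the libraries than its size. The summed level of *Cav1*, *Cav2* and *Cav3* was 91.7 FPKM with siNC and 86.5 FPKM with si*Malat1*. Within that sum *Cav3* held 9.21% in siNC and 28.8% in si*Malat1*, a difference of 19.6 percentage points. *Cav1* held 84.3% and 65.7%, and *Cav2* held 6.45% and 5.42%. The level of *Cav1* was 9.15 times that of *Cav3* in siNC and 2.28 times in si*Malat1*, whereas it was 13.1 times that of *Cav2* in siNC and 12.1 times in si*Malat1*. *Cav1* remained the highest caveolin in both libraries. Such shares are taken within a library and do not depend on the scaling between libraries.

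**Figure D2:**
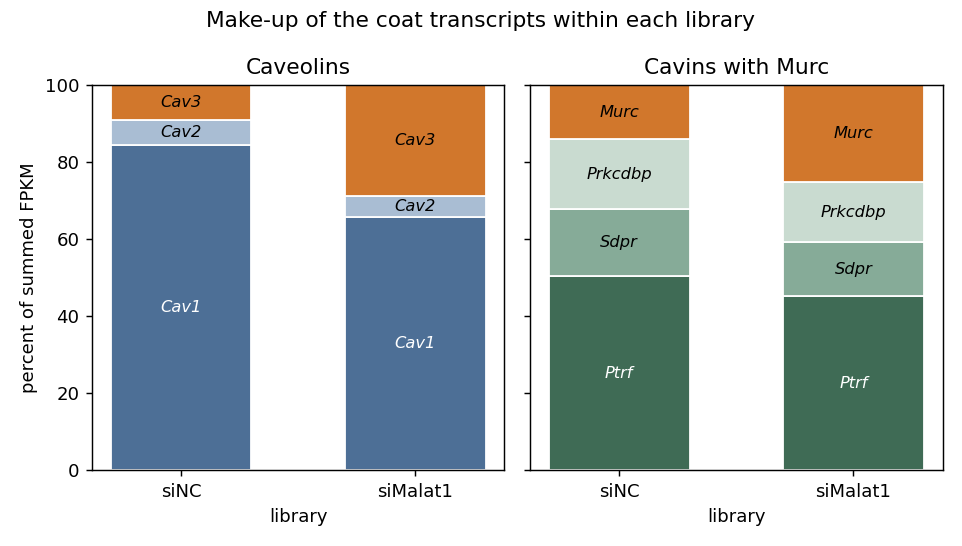
Percent of the summed FPKM of the caveolins (left) and of the cavins with *Murc* (right) that each gene held within the siNC and the si*Malat1* library. The muscle forms at the top widened in si*Malat1*, *Cav3* from 9.21% to 28.8% of caveolins and *Murc* from 14.1% to 25.3% of cavins.

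*Ptrf*, the cavin that every caveola needs, was the highest coat gene in both libraries, at 303 FPKM with siNC and 252 FPKM with si*Malat1*. Its log2 ratio of -0.27 was the nearest to 0 of the 6, and 12.6% of genes tested had a lower one. *Sdpr* was at 105 FPKM with siNC and 77.3 FPKM with si*Malat1*, a log2 ratio of -0.44 with 4.03% of genes tested below it. *Prkcdbp* was at 109 FPKM with siNC and 86.5 FPKM with si*Malat1*, a log2 ratio of -0.33 with 8.07% below it. All 3 general cavins were lower in si*Malat1*, and *Cav1* and *Sdpr*, the lowest members by log2 ratio, lay just past the 5th percentile of genes tested, which was at -0.40. *Ptrf* lies on chromosome 11 of mm9 from 100818051 to 100831931, *Sdpr* on chromosome 1 from 51345970 to 51359804 and *Prkcdbp* on chromosome 7 from 112629130 to 112630711, so the general cavins are not neighbours of each other. Of the 1613 words of 50 bases in *Prkcdbp*, 325 lie in the antisense transcript *Gm45667* of GENCODE M21, and since the sources used here do not state the strand of the libraries, reads from that stretch cannot be told apart. The other members share no such word with another gene.

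The general cavins held similar proportions in both libraries. Of the sum of these 3, *Ptrf* held 58.7% in siNC and 60.6% in si*Malat1*, *Sdpr* 20.3% and 18.6%, and *Prkcdbp* 21.0% and 20.8%. Their summed level was 517 FPKM with siNC and 416 FPKM with si*Malat1*. It was 5.64 times that of the caveolins in siNC and 4.81 times in si*Malat1*, but with *Murc* counted among the cavins these ratios were 6.56 and 6.43.

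*Murc*, the muscle cavin, was at 84.7 FPKM with siNC and at 141 FPKM with si*Malat1*, 1.66-fold higher, with a log2 ratio of 0.73 and 1.49% of genes tested above it. It was thus on the side of *Cav3* and apart from the general cavins. *Murc* held 14.1% of the cavin sum in siNC and 25.3% in si*Malat1*. The level of *Ptrf* was 3.58 times that of *Murc* in siNC and 1.79 times in si*Malat1*. By level the order in siNC was *Ptrf*, *Prkcdbp*, *Sdpr*, *Murc*, *Cav1*, *Cav3* and *Cav2*, and in si*Malat1* the place of *Murc* was the one that changed, to the second. With single libraries no spread tells which neighbours in this order differ. Both muscle forms were higher in si*Malat1*, but not by the same fold, since *Murc* was 10.0 times the level of *Cav3* in siNC and 5.65 times in si*Malat1*. *Murc* lies on chromosome 4 of mm9 from 48676386 to 48686364.

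**Figure D3:**
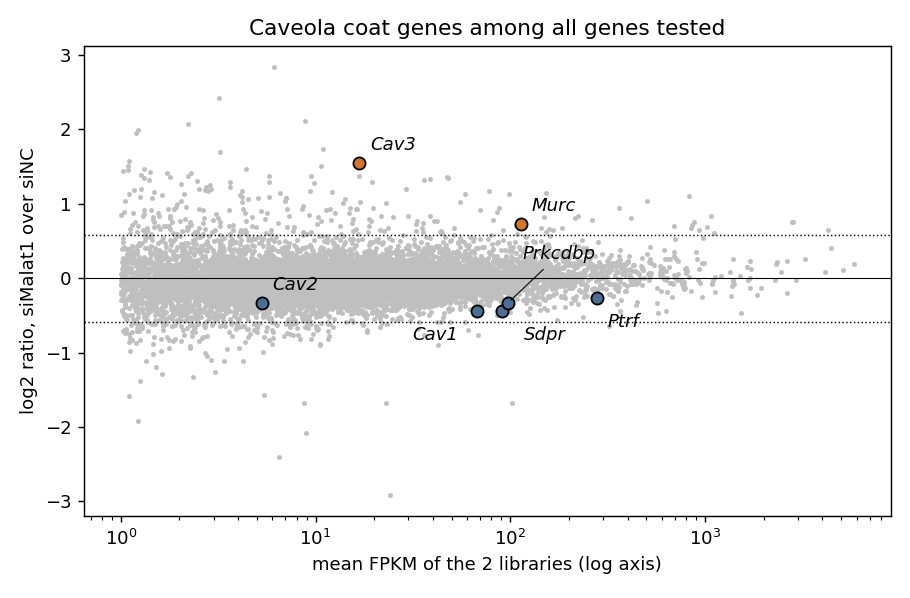
Log2 ratio of si*Malat1* over siNC against the mean FPKM of the 2 libraries (log axis) for the 11099 genes tested (grey points), with the coat genes marked and dotted lines at a fold of 1.5 in each direction. *Cav3* (1.55) and *Murc* (0.73) lie above the upper line and *Cav1* (-0.44), *Sdpr* (-0.44), *Prkcdbp* (-0.33), *Cav2* (-0.33) and *Ptrf* (-0.27) lie between the lower line and 0.

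The bases before the transcription start were read for E boxes, since MyoD and myogenin bind this motif and MyoD is the factor the study follows. They are shown for the muscle forms *Cav3* and *Murc*, whose levels were higher in si*Malat1*, and for *Cav1*, the member with the lowest log2 ratio. RefSeq windows (GRCm38.p6) of 250 bases before the start were at hand for 5 of the 6 members, all but *Prkcdbp*, and for *Murc*. All 3 windows shown are on the plus strand, and capitals mark CANNTG, which reads the same on both strands and includes CAGCTG and one strand of CACCTG or the other.
*Cav3*, chr6:112459255-112459504: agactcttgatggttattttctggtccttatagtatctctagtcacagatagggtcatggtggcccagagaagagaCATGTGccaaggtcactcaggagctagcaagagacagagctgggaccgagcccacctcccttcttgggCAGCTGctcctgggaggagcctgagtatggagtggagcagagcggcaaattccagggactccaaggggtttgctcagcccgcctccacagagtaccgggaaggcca
*Murc*, chr4:48663264-48663513: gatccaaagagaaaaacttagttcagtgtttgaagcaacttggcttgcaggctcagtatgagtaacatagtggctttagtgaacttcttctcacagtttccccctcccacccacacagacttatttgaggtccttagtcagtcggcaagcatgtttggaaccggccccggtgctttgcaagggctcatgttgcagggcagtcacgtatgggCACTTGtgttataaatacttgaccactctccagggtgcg
*Cav1*, first of 2 windows, chr6:17306085-17306334: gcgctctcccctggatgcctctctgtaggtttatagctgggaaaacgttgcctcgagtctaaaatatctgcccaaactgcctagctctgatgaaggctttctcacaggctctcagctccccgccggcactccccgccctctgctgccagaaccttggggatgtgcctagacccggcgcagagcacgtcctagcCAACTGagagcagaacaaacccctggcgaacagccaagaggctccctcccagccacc
The *Cav3* window holds 2 E boxes, CATGTG with its first base at -174 and CAGCTG at -106 from the start. The *Murc* window holds 1, CACTTG at -39, and the first *Cav1* window holds 1, CAACTG at -57. Of all 32851 windows of this length, 66.2% hold at least 1 CANNTG, 31.8% at least 2 and 13.0% a CAGCTG. The second *Cav1* window holds 1 E box, CAGGTG at -158, a form of CACCTG that 17.2% of windows hold on either strand. The *Cav2* window holds 2, CAAGTG at -140 and CAACTG at -47, and the windows of *Ptrf* and *Sdpr* hold 0. CATTCC, the core of the M-CAT site, was searched on both strands and occurs in 12.6% of windows and, among these genes, in *Ptrf*. A general caveolin thus has as many E boxes in its window as *Cav3*, and CAGCTG occurs only in *Cav3* among these genes. Such matches describe letters and are not sites shown to be bound.

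Genes that complete the caveola lay on both sides of 0, with the muscle members *Murc* and *Pacsin3* the highest. Of 11 accessory genes, 8 were tested, with 4 above 0 and 4 below (5 and 3 when log2 ratios were centred on their median), and 1, *Murc*, past 1.5-fold. Among genes tested 42.6% lay above 0 and 2.29% were higher past 1.5-fold. Their median log2 ratio was 0.06. After *Murc* the highest was *Pacsin3*, the muscle member of a family of membrane-bending F-BAR proteins, at 87.8 FPKM with siNC and 123 FPKM with si*Malat1* (log2 ratio 0.49). *Ehd2*, the ATPase that rings the caveola neck and holds it at the membrane, was the lowest, at 153 and 121 FPKM (log2 ratio -0.34). *Flna*, filamin A, which ties caveolin-1 to actin, was at 267 and 227 FPKM (log2 ratio -0.24). The general *Pacsin2* was level with a log2 ratio of -0.02, so that the ratio of *Pacsin3* to *Pacsin2* went from 0.307 in siNC to 0.438 in si*Malat1*. The ratio of *Ehd2* to *Ptrf* was 0.506 in siNC and 0.481 in si*Malat1*.

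Partners of caveolin-3 and genes of the T tubule and of membrane repair lay on both sides of 0. Of 11 genes 9 were tested, 6 above 0 and 3 below, against 42.6% above 0 among genes tested. Their median log2 ratio was 0.35, and 1 of 9 was higher past 1.5-fold, against 2.29% of genes tested. That gene was *Trim72* (MG53), which binds caveolin-3 and dysferlin in membrane repair, at 36.2 FPKM with siNC and 73.7 FPKM with si*Malat1* (log2 ratio 1.02). *Jph1*, a junctophilin that tethers the T tubule to the calcium store, was at 12.9 and 17.9 FPKM (log2 ratio 0.47). The lowest were *Myof*, the dysferlin relative of fusing myoblasts, at 67.4 and 59.4 FPKM (log2 ratio -0.18), and *Dag1*, which encodes dystroglycan, at 136 and 131 FPKM (log2 ratio -0.06). *Nos1*, the neuronal nitric oxide synthase that caveolin-3 binds, was under 1 FPKM in both libraries.

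The genes of other membrane coats had log2 ratios closer to 0 than the caveola coat genes, apart from *Dnm1*. All 15 genes of flotillins, clathrin, its AP-2 adaptor and dynamins were tested, with 0 past 1.5-fold. Among genes tested, 2.29% were higher past this fold and 1.75% lower. On the side of 0, 2 were above and 13 below, against 57.4% below 0 among genes tested. Centred on the median 10 were below, and scaled to the same sum all 15 were, against 67.9% of genes tested. The median log2 ratio of the list was -0.10. The highest were the clathrin heavy chain *Cltc* (56.8 FPKM with siNC and 57.9 FPKM with si*Malat1*, log2 ratio 0.03) and the adaptor subunit *Ap2m1* (53.2 and 54.0 FPKM, log2 ratio 0.02), whose sign turned when both libraries were scaled to the same sum. The lowest were *Dnm1*, a dynamin best known from neurons, which shares its locus in the table with another gene (57.3 and 42.9 FPKM, log2 ratio -0.41), and the adaptor subunit *Ap2a2* (65.3 and 57.0 FPKM, log2 ratio -0.20). *Ap2a1*, *Dnm2* and *Dnm3* are likewise not alone at their loci. Apart from *Dnm1*, each log2 ratio of this list was nearer to 0 than that of *Ptrf*, the general coat gene nearest to 0.

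Signalling proteins reported to bind caveolin-1 were mixed. Of 10 genes 9 were tested, 4 above 0 and 5 below, against 57.4% below 0 among genes tested, with a median log2 ratio of -0.12. *Cd36*, a fatty acid receptor, was at 0.720 FPKM with siNC and 2.11 FPKM with si*Malat1* (log2 ratio 1.43). It was the 1 gene past 1.5-fold, against 2.29% of genes tested that were higher past this fold. Under 1 FPKM in siNC, it met the filter on mean level only through si*Malat1*, so its log2 ratio is tied to that filter. *Fyn*, a kinase of the Src family, was at 85.0 and 114 FPKM (log2 ratio 0.42). *Egfr*, the receptor of epidermal growth factor, was the lowest at 8.75 and 6.52 FPKM (log2 ratio -0.42), followed by the kinase *Yes1* at 5.37 and 4.80 FPKM (log2 ratio -0.16).

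**Figure D4:**
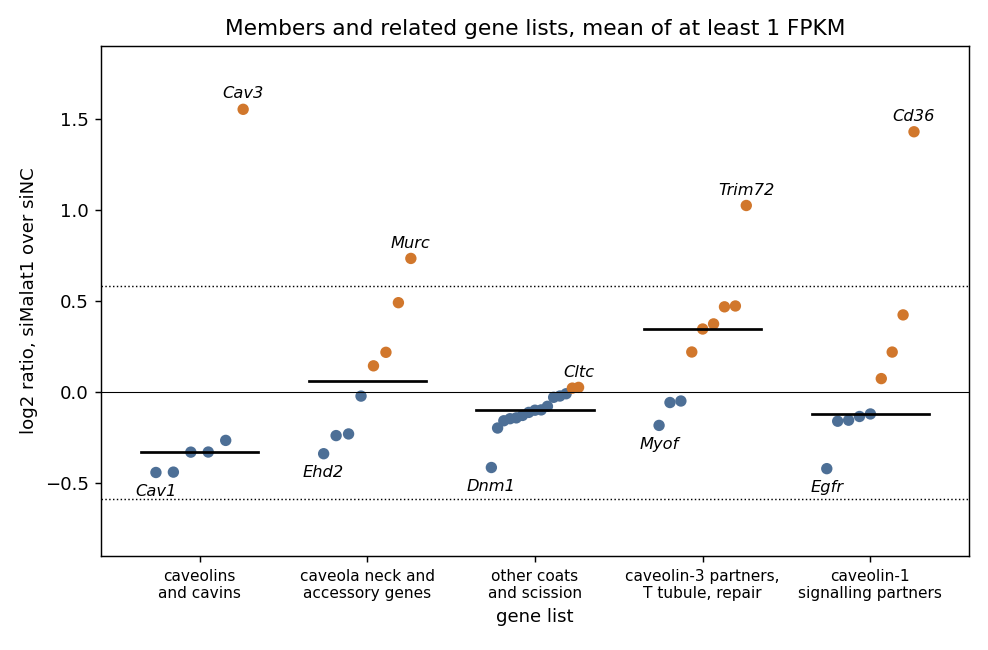
Log2 ratio of si*Malat1* over siNC for each tested gene of the coat genes and of 4 related lists, with the median of each list as a bar and dotted lines at a fold of 1.5; the highest and lowest gene of each list is named. Single genes lie past the upper line (*Cav3*, *Murc*, *Trim72* and *Cd36*) and none past the lower. *Cd36* was under 1 FPKM in siNC and met the filter on mean level only through si*Malat1*.

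Genes with levels most like those of *Cav3* were sarcomere and muscle genes. By distance of log2 levels over the 2 libraries, among 9453 other tested genes alone at their locus, the nearest to *Cav3* were *Myh1*, the fast 2X myosin heavy chain (9.26 FPKM with siNC and 24.2 FPKM with si*Malat1*, distance 0.14), *Trim63*, the muscle ubiquitin ligase MuRF1 (9.18 and 19.3 FPKM, distance 0.39), and *Actn2*, an alpha-actinin of the Z disc (11.2 and 27.7 FPKM, distance 0.43). The nearest to *Cav1* were *Inf2*, a formin that builds actin filaments (75.8 and 55.9 FPKM, distance 0.04), *Epb4.1l2*, a membrane skeleton protein of the band 4.1 family (74.8 and 58.5 FPKM, distance 0.06), and *Trim8* (74.9 and 59.3 FPKM, distance 0.07). Likeness over single libraries of 2 groups reflects a level and a ratio and no more.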

How the data were processed

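Polyadenylated RNA from C2C12 cells given siNC or si*Malat1* was sequenced in paired reads of 50 bp, 1 library per group. Per the labels' processing notes and the study's methods, the authors mapped to mm9 with TopHat2 2.0.9 and estimated FPKM with Cufflinks 2.1.1 and Cuffdiff 2.1.1. The sources used here do not name the gene annotation. The deposited table gives 1 FPKM per gene and library, summing to 484715 in siNC and 502715 in si*Malat1*. It holds no counts, so no interval for counting error is given. Its columns of the authors' log ratios and calls were not used. Of 22095 genes, 5115 are listed at 0 in both libraries, which can be a failed estimate.

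Genes above 0 in both libraries that averaged at least 1 FPKM are called tested, in the sense of compared, without p-values. Log2 ratios used a pseudocount of 0.1 FPKM, which understates changes of low genes. A fold of 1.5 served as the threshold. Starts were raised by 1, since 6044 of 16386 single-gene loci then match the RefSeq length, against 414 as given. Members and lists were chosen with earlier results of these data known. Genes are named by rule: the members, *Murc*, *Malat1* and *Gapdh*, the 2 highest and 2 lowest tested genes of each related list, and the 3 genes nearest in level to *Cav3* and to *Cav1*. *Pacsin2*, *Nos1*, *Ap2a1*, *Dnm2*, *Dnm3*, the cell type markers and chromosomal neighbours are named beside that rule. Sequences come from GENCODE M21 and RefSeq (GRCm38), and no coordinates were carried between builds. The planned comparison of protein sequences was not made, and coding sequences were aligned with Biopython 1.88 instead. The analysis used Python 3.11.15, numpy 2.4.6 and pandas 2.3.3. Only the function that computes the log2 ratios was tested on simulated data.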

Additional observations from a re-analysis of the deposited data

How the results depend on the processing

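All 6 members kept their direction and their side of the 1.5-fold threshold under no pseudocount, a pseudocount of 1 FPKM, the same FPKM sum, median centring and the same upper quartile. Under these the log2 ratio ranged from 1.46 to 1.59 for *Cav3*, -0.49 to -0.41 for *Cav1*, -0.38 to -0.28 for *Cav2*, -0.32 to -0.23 for *Ptrf*, -0.49 to -0.40 for *Sdpr* and -0.38 to -0.29 for *Prkcdbp*. The count of members lower past the threshold depended on the fold, with 0 at 1.5-fold and 4 at the smaller log2 ratio of 0.32 (*Cav1*, *Cav2*, *Sdpr* and *Prkcdbp*). At that smaller size it also depended on the scaling, in alternatives chosen after seeing the data: 2 when centred on the median, 3 with a pseudocount of 1 FPKM and 4 under the other settings, with 1 member higher under each. The ratio of cavins to caveolins was lower by 0.831 in si*Malat1* than in siNC, and with *Murc* among the cavins the difference was -0.126. The background shares past 1.5-fold moved with the filter, from 3.60% higher and 3.22% lower over all genes above 0 to 1.42% and 0.508% at a mean of at least 10 FPKM, and a pseudocount of 1 FPKM gave 0.694% lower. No paired analysis was possible because each group has 1 library. For the same reason no library could be left out.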

Other observations

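The genes beside the coat genes on the chromosome were read as a further description, chosen by position after the members' values had been seen. *Met*, the hepatocyte growth factor receptor, lies 122632 bases beyond *Cav1* and was at 10.9 FPKM with siNC and 8.52 FPKM with si*Malat1* (log2 ratio -0.35), and *Tes*, a focal adhesion gene, lies 175515 bases before *Cav2* and was at 41.6 and 36.5 FPKM (log2 ratio -0.19). The 4 genes *Tes*, *Cav2*, *Cav1* and *Met*, which lie in a row, each had a log2 ratio below 0, as did 57.4% of genes tested. *Oxtr*, the oxytocin receptor gene, lies 811 bases from *Cav3* and was under 1 FPKM in both libraries (0.0272 and 0.0415 FPKM), and *D630042P16Rik* on the other side was listed at 0 in siNC and at 0.0539 FPKM with si*Malat1*, so neither gene beside *Cav3* reached 1 FPKM. *Tmeff1*, 382 bases from *Murc*, was at 12.9 and 16.8 FPKM (log2 ratio 0.38). *Stat3* and *Atp6v0a1*, which flank *Ptrf*, had log2 ratios of -0.21 and 0.07. Beside *Sdpr*, which was lower in si*Malat1*, *Tmeff2* had a log2 ratio of -0.05 and *Obfc2a* was at 5.97 FPKM with siNC and 7.72 FPKM with si*Malat1* (log2 ratio 0.37). Beside *Prkcdbp*, also lower, *Smpd1*, the acid sphingomyelinase gene, had a log2 ratio of 0.16 and *Cckbr* was listed at 0 in both libraries. Neighbours thus lay on both sides of 0.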
